A study of Mus musculus with 4 samples.

Results

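The 40 genes described here take part in the amino acid stress response and the unfolded protein response. They were listed by function with earlier results of these data known, so counts set beside those of all genes are no independent support. A gene was followed through every probe set annotated to it. Of the 40, 39 had a probe set, and the expression of Pycr1, a proline synthesis enzyme, was not analysed here. A gene was represented by its brightest probe set on average. That probe set passed the filter on low values in 38 of the 39 genes, and over the whole arrays 13367 of 18193 genes with a named probe set passed. Slc7a11 did not pass.

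The arrays compared a tumorigenic subline, called glioma-initiating cell-like (GIC), with a nontumorigenic subline (non-GIC), with 2 arrays each. Both sublines came from neural stem cells of the telencephalon of p53-/- C57BL/6 embryos at embryonic day 14.5. Both had been electroporated with pCMS-EGFP-HRasL61, which carries an activated HRas, and pBabe-neo, selected with neomycin and sorted for GFP. Both groups therefore share the p53 deletion, the oncogene, the selection and a medium with PDGF and bFGF, and they differ in the labels only by tumorigenicity. The labels do not say how many clones or cultures a subline holds, so the p-values reflect only how far these arrays differ from each other, which may be technical, and any other difference between the sublines cannot be told apart from tumorigenicity.

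Kinases phosphorylate the translation factor eIF2alpha when amino acids run short or, for Perk (Eif2ak3), when unfolded proteins build up in the endoplasmic reticulum (ER). General protein synthesis then slows, while the transcription factor Atf4 is made in larger amount and switches on genes for amino acid synthesis, amino acid import and tRNA charging. In the ER, Atf6 and Ire1 (Ern1), which splices Xbp1 mRNA, act beside Perk and switch on chaperones and ER-associated degradation. Proliferating cells also use the serine, glycine and 1-carbon enzymes of this set to make nucleotides.

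The start-site regions of these genes are shown first, because some of them hold an Atf4-type element there and others an ER stress element, while most hold neither. RefSeq windows (GRCm38.p6) of 250 bases before to 50 bases after the start site were found for 36 of the 40 genes and searched on both strands. The core of the C/EBP-ATF response element, TGATGNAA, was found in 7 of the 36 genes (19.4%), which are Asns, Atf3, Chac1, Herpud1, Pycr1, Slc7a11 and Trib3, against 4.51% of all 27025 genes with a window. The ER stress response element, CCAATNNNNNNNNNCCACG, was found in 7 of the 11 chaperone and folding genes with a window (63.6%) and in no other gene of the 36, against 0.137% of all genes. Herpud1 held both the first core and the ER stress response element II, ATTGG and CCACG set 1 base apart, which is present in 0.0444% of all genes. The unfolded protein response element TGACGTGG was found in none of the 36 windows, against 0.714% of all genes. The motifs searched do not overlap in any window of the set, and a match describes letters in the window, not binding. The genes were listed as members of these responses, so their shares beside those of all genes are no independent support.

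The 8 matches to the ER stress response element are shown with the fixed letters in capitals, read 5′ to 3′ in the direction of the motif. They share the spacing of 9 bases, in lower case, and differ there.
Hspa5: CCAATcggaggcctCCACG
Hsp90b1, upstream match: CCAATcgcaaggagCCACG
Hsp90b1, downstream match: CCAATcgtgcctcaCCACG
Calr: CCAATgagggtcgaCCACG
Canx: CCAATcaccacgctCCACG
Pdia6: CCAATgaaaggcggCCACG
Dnajc3: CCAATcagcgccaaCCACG
Creld2: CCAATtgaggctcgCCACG

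Of the 250 bases before the start site, 3 examples are given on the gene's own strand, with the matched letters in capitals. Asns and Atf3 both hold the Atf4-type core, in Atf3 on the opposite strand, and had differences of opposite sign between the sublines. Hspa5 holds the ER stress element. The Asns region is chr6:7693210-7693459 (minus strand), the Atf3 region is chr1:191183334-191183583 (minus strand) and the Hspa5 region is chr2:34771840-34772089 (plus strand).
Asns: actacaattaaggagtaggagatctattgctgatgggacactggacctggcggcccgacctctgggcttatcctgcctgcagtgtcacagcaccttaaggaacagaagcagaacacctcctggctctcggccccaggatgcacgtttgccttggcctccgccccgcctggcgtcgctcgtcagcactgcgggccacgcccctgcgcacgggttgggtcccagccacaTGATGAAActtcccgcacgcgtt
Atf3: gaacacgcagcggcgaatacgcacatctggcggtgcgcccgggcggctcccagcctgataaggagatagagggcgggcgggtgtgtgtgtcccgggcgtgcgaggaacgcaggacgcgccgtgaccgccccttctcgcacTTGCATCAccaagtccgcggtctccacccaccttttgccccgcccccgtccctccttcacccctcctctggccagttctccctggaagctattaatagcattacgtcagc
Hspa5: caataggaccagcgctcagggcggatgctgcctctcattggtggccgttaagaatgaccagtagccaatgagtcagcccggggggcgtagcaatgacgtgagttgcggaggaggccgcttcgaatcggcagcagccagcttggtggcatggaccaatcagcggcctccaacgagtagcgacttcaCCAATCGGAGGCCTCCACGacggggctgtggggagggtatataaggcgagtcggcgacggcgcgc

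Values are deposited log2 signals, with array medians of 6.58 to 6.63. A signal is not compared between probe sets. Pearson's r over genes was 0.976 within GIC, 0.978 within non-GIC and 0.918 to 0.954 across sublines. Among neural stem cell markers, Nes and Fabp7 fell in GIC (limma adjusted p = 0.0457 and 0.0258), while Vim, Sox2, Pax6, Msi1, Hes1 and Sox9 did not pass and Prom1 lay below the filter on all arrays. Fabp7 lay below the filter level in GIC (5.23 and 5.23) and passed the filter only through non-GIC (6.58 and 6.89), so its call is no independent support. Of the 8 stem cell markers tested, 7 had a negative difference, where 51.5% of all genes did, and that of Sox2 was -0.90 (limma adjusted p = 0.144). Among these 7, Vim (-0.0052) and Msi1 (-0.035) lay close to 0 and overlapped between the sublines. The 1 positive was Sox9, with 10.13 and 9.24 in GIC and 7.66 and 8.76 in non-GIC (difference 1.47, limma adjusted p = 0.231). No marker of neurons, astrocytes, oligodendrocytes, leukocytes, endothelium, or mural cells and fibroblasts passed limma's test, and 0 of them had an unadjusted p under 0.05. Of the 3 neuron markers tested, 2 were positive and 1 negative. Tubb3 had 9.77 and 10.06 in GIC and 7.98 and 9.56 in non-GIC (difference 1.15, limma adjusted p = 0.363). Below the filter level of 5.97 on all 4 arrays lay Dcx, Aqp4, Mog, Ptprc, Aif1, Itgam, Tyrobp, Pecam1, Cdh5, Tek, Lum and Rgs5. The fibroblast collagen gene Col1a1 had 13.59 and 10.70 in GIC and 13.84 and 14.57 in non-GIC. Col1a2 had 11.54 and 11.72 in GIC and 11.46 and 9.28 in non-GIC. Dcn had 8.67 and 7.90 in GIC and 7.26 and 8.27 in non-GIC (difference 0.52). Pdgfrb had 12.56 and 11.18 in GIC and 11.82 and 12.30 in non-GIC (difference -0.19). The 4 markers did not share a sign and each differed within a subline, and their part in the results below was not tested. In bulk RNA, fewer cells of a type and less RNA per cell cannot be told apart. The p53 and HRas transcripts were not analysed here.

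Of the 38 genes tested, 1 passed limma's test over all genes (adjusted p under 0.05), the urea cycle and arginine synthesis enzyme Ass1, and it was lower in GIC. Over all 13367 genes, 1.93% passed in either direction, 1.23% higher and 0.696% lower in GIC. Among the 38, an unadjusted p under 0.05 was reached by 3 genes higher and 9 lower in GIC, where all genes gave 9.75% and 8.11%. The GIC arrays both lay above both non-GIC arrays in 9 of the 38 genes and below them in 16, and overlapped in 13, against 25.5% above and 24.9% below over all genes. The median log2 fold change, GIC minus non-GIC, was -0.07, beside -0.01 for all genes. The roles differed in sign. The median was -0.80 for the amino acid enzymes, -0.36 for the transporters, -0.20 for the eIF2alpha-Atf4 branch, 0.19 for the Atf6 and Ire1 genes, 0.19 for the chaperones and folding enzymes, and -0.60 for ER-associated degradation. These medians were not tested. Leaving out non-GIC replicate 2 gave -0.17 for the transporters, 0.09 for the eIF2alpha-Atf4 branch, 0.39 for the Atf6 and Ire1 genes and -0.29 for degradation. Leaving out non-GIC replicate 1 gave -0.56, -0.40, -0.00273 and -0.64 for the same roles.

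**Figure D1:**
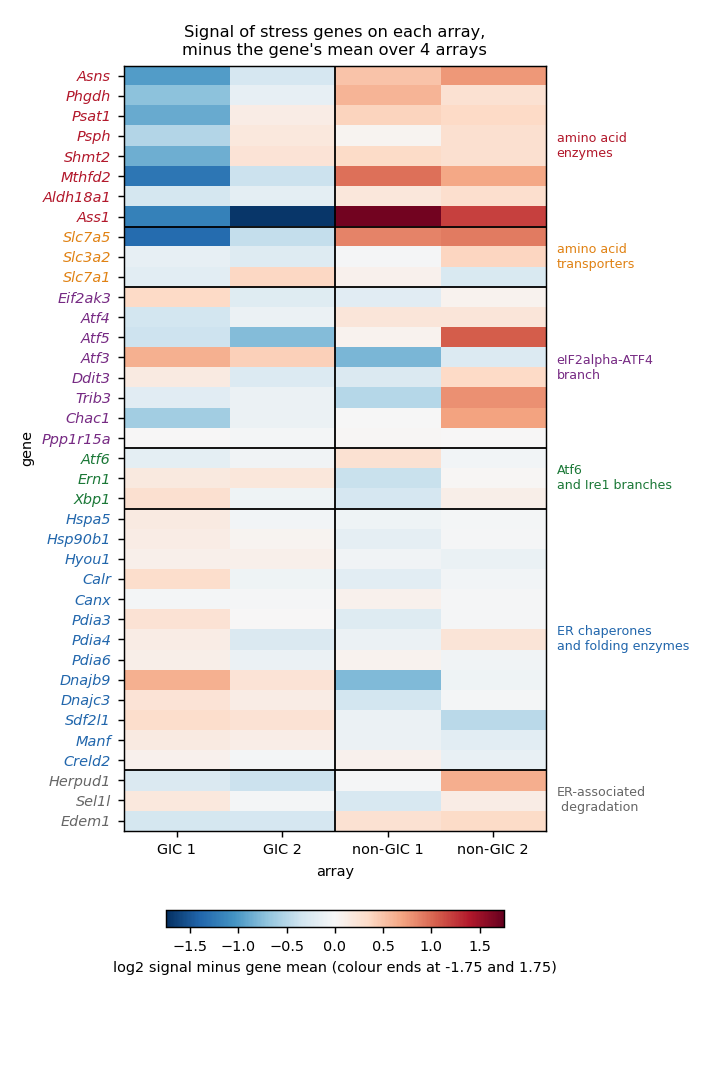
Heat map of the log2 signal of the 38 tested genes (rows, grouped by role) on each array (columns), after subtracting the gene's mean over the 4 arrays. The amino acid enzymes are lowest on a GIC array in 8 of 8 genes, and the chaperones show little colour on any array apart from Dnajb9 and Sdf2l1.

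All 8 tested amino acid enzymes had a negative log2 fold change, from -0.33 for Psph to -2.89 for Ass1, where 51.5% of all genes were negative. In 7 of 8 both GIC arrays lay below both non-GIC arrays on the probe set used, against 24.9% of all genes. Of the 8, 1 passed the test, where 0.696% of all genes passed as lower in GIC. GIC replicate 1 was the lowest array in 7 of the 8, the exception being Ass1.

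Ass1, which joins citrulline and aspartate on the way to arginine, had signals of 9.77 and 9.24 in GIC and 12.64 and 12.15 in non-GIC. The gap between the groups was well above the spread within either, as the mean was 9.51 ± 0.37 for GIC and 12.39 ± 0.35 for non-GIC (SD, n = 2 each). Ass1 fell by 2.89 on the log2 scale in GIC (SE 0.28, 95% interval -3.62 to -2.16, limma adjusted p = 0.0285), or 7.40-fold, and ranked 91 of 13367 genes by p. Its probe set is annotated to Ass1 and to the transcribed pseudogene Gm5424, so signal from the pseudogene transcript cannot be told apart from that of Ass1. The other Ass1 probe set, annotated to Ass1 alone, lay below the filter on all 4 arrays, with 4.05 and 4.15 in GIC and 4.23 and 4.23 in non-GIC. The call was lost with the replicate number as a block (adjusted p = 0.0669), when non-GIC replicate 1 was left out (difference -2.64, adjusted p = 0.133) and when non-GIC replicate 2 was left out (difference -3.14, adjusted p = 0.0893). Over the alternatives that kept all arrays the limma adjusted p ranged from 0.0204 to 0.0669. The lowest came from blocks with crossed replicate numbers, which were added after seeing the data. Averaging both probe sets, 1 of which lay below the filter, gave 2.85-fold.

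Mthfd2, the mitochondrial 1-carbon enzyme, had 8.94 and 9.84 in GIC and 11.17 and 10.88 in non-GIC. The groups did not overlap, and the difference was -1.64 (SE 0.34, 95% interval -2.54 to -0.74, limma adjusted p = 0.115). Asparagine synthetase, Asns, which is a widely used readout of Atf4 activity, had 10.28 and 10.96 in GIC and 11.75 and 12.01 in non-GIC. Its groups did not overlap either, with a difference of -1.26 (SE 0.28, 95% interval -1.99 to -0.53, limma adjusted p = 0.126), and its promoter holds the core shown above.

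The serine pathway starts with Phgdh, which had 12.53 and 13.10 in GIC and 13.83 and 13.51 in non-GIC (difference -0.86, SE 0.24, limma adjusted p = 0.185). All 6 Phgdh probe sets had a negative difference, the smallest in size being -0.80, and 2 of them are also annotated to pseudogenes. The next enzyme, Psat1, had 11.88 and 12.89 in GIC and 13.15 and 13.10 in non-GIC. The last enzyme, Psph, had 10.62 and 11.31 in GIC and 11.18 and 11.42 in non-GIC, and was the enzyme whose groups overlapped on the probe set used. Shmt2, which makes glycine and 1-carbon units from serine, had 10.71 and 11.81 in GIC and 11.90 and 11.84 in non-GIC. On another of its probe sets the groups overlapped, with 10.29 and 11.34 in GIC and 11.43 and 11.27 in non-GIC. For Psat1, Psph and Shmt2, GIC replicate 1 stood apart while GIC replicate 2 lay near the other subline. Without GIC replicate 1 the differences were -0.24 for Psat1, 0.01 for Psph and -0.07 for Shmt2, and without GIC replicate 2 they were -1.25, -0.68 and -1.16. The median over the enzymes was -0.49 without GIC replicate 1 and -1.20 without GIC replicate 2.

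Aldh18a1, which starts proline synthesis from glutamate, had 10.60 and 10.74 in GIC and 11.11 and 11.21 in non-GIC. Here the arrays of each subline lay close together, with a difference of -0.48 (SE 0.16, 95% interval -0.90 to -0.07, limma adjusted p = 0.23). All 5 of its probe sets had a negative difference, from -0.54 to -0.38.

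**Figure D2:**
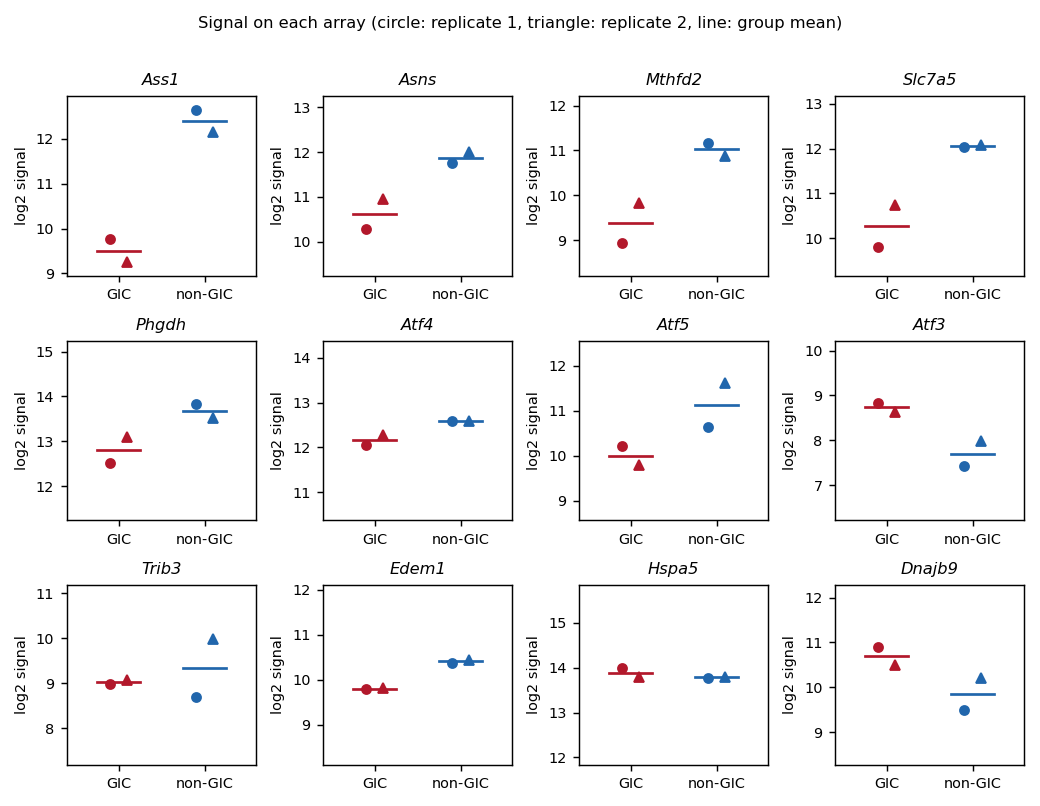
Log2 signal of 12 genes on each array, GIC left and non-GIC right in every panel; circles are replicate 1, triangles replicate 2 and lines the group means, and each panel spans the same range of 4 on the log2 scale. The groups are far apart for Ass1 and apart for Mthfd2 and Slc7a5, and they overlap for Trib3 and Hspa5.

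Among the amino acid transporters, Slc7a5, the light chain of the LAT1 carrier for leucine and other large neutral amino acids, had 9.82 and 10.75 in GIC and 12.03 and 12.08 in non-GIC. The groups did not overlap, and the difference of -1.77 was the second largest in size in the set (SE 0.34, 95% interval -2.66 to -0.89, limma adjusted p = 0.0983). Without GIC replicate 2 it was -2.24 and passed the test (adjusted p = 0.0317), and without GIC replicate 1 it was -1.31. Its heavy chain partner Slc3a2 had 11.98 and 11.89 in GIC and 12.10 and 12.50 in non-GIC, a difference of -0.36 (limma adjusted p = 0.394). The cationic amino acid transporter Slc7a1 had 10.98 and 11.52 in GIC and 11.24 and 10.90 in non-GIC, so its groups overlapped. Its 3 probe sets gave differences from 0.01 to 0.30. The transporters did not share a sign. The cystine carrier Slc7a11 was not tested, as only non-GIC replicate 1 lay above the filter level. Its values were 4.67 and 5.23 in GIC and 6.19 and 5.47 in non-GIC, and its window holds the Atf4-type core 2 times.

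In the eIF2alpha-Atf4 branch none of the 8 genes passed limma's test, with adjusted p from 0.133 to 0.948. At an unadjusted p under 0.05 there was 1 higher and 2 lower in GIC, where all genes gave 9.75% and 8.11%. Atf4 mRNA had 12.06 and 12.27 in GIC and 12.60 and 12.59 in non-GIC, a difference of -0.42 (SE 0.14, 95% interval -0.80 to -0.05, limma adjusted p = 0.243). Its 3 probe sets had differences from -0.42 to -0.23. Atf4 is controlled mainly at translation, which these arrays do not measure. The related factor Atf5 had 10.20 and 9.80 in GIC and 10.63 and 11.62 in non-GIC, a difference of -1.12 (SE 0.38, limma adjusted p = 0.24) that was -0.63 when non-GIC replicate 2 was left out and -1.62 when non-GIC replicate 1 was.

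Atf3, a stress-induced repressor and activator of the same family, stood on the other side. It had 8.84 and 8.64 in GIC and 7.42 and 7.97 in non-GIC, with no overlap. The difference was 1.04 (SE 0.24, 95% interval 0.42 to 1.66, limma adjusted p = 0.133), the largest positive value in the set.

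The Atf4 targets Trib3, Chac1 and Ddit3 had wider gaps between the non-GIC arrays than between the GIC arrays. Trib3, a pseudokinase that feeds back on Atf4, had 8.98 and 9.07 in GIC and 8.69 and 9.98 in non-GIC. The non-GIC gap of 1.29 was larger than the difference between the groups (-0.31, 95% interval -1.48 to 0.87), whose sign turned without non-GIC replicate 2. Chac1, which degrades glutathione, had 8.55 and 9.05 in GIC and 9.15 and 9.86 in non-GIC (difference -0.71, limma adjusted p = 0.348). Ddit3, the pro-apoptotic factor Chop, had 10.27 and 9.87 in GIC and 9.86 and 10.46 in non-GIC, with overlap. Non-GIC replicate 2 was the highest array for Atf5, Ddit3, Trib3 and Chac1. Ppp1r15a (Gadd34), which directs eIF2alpha dephosphorylation, had 10.27 and 10.24 in GIC and 10.28 and 10.28 in non-GIC, with an interval for the difference of -0.43 to 0.38. The kinase Eif2ak3 had 9.86 and 9.30 in GIC and 9.31 and 9.58 in non-GIC, and its 2 probe sets past the filter went opposite ways (-0.30 and 0.14).

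In the Atf6 and Ire1 branches none of the 3 genes passed limma's test, and 0 had an unadjusted p under 0.05. Ern1, the sensor Ire1, had 9.43 and 9.45 in GIC and 8.87 and 9.28 in non-GIC (difference 0.37, 95% interval -0.17 to 0.90). Atf6 had 9.18 and 9.29 in GIC and 9.62 and 9.30 in non-GIC, and its 3 probe sets gave differences from -0.44 to -0.01. Xbp1 had 11.93 and 11.57 in GIC and 11.36 and 11.75 in non-GIC, with overlap. The arrays summarise Xbp1 as a whole and were not read here for the spliced form.

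**Figure D3:**
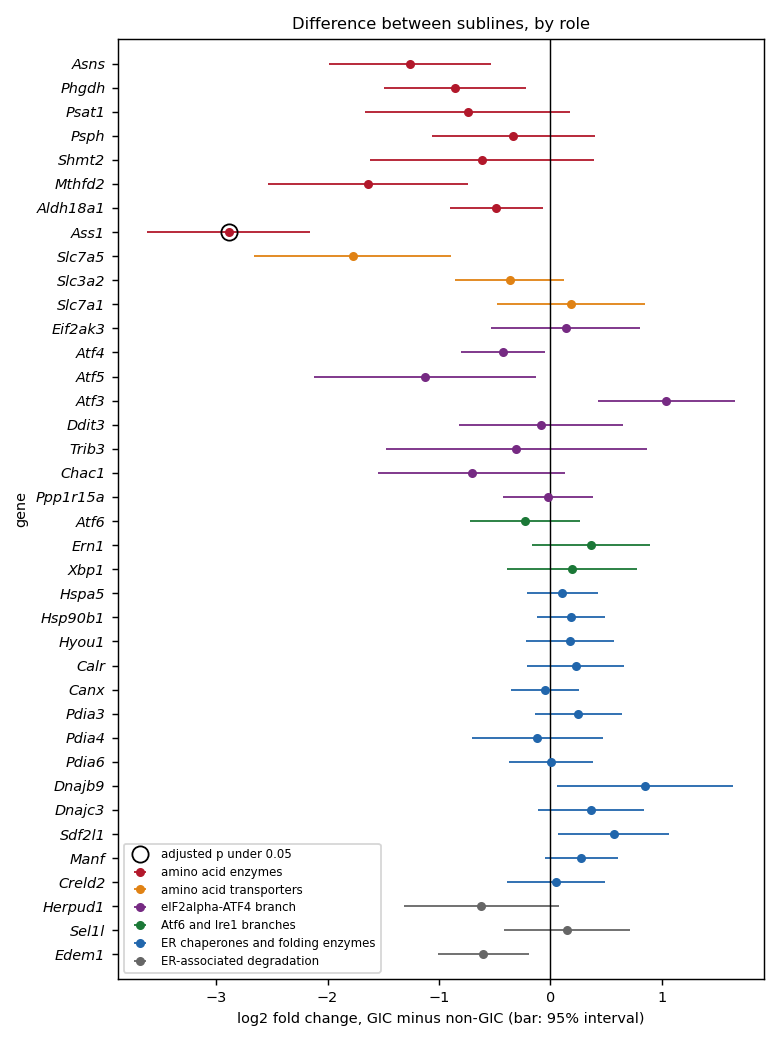
Log2 fold change, GIC minus non-GIC, of each tested gene with its 95% interval, coloured by role; the ring marks the gene with an adjusted p under 0.05, Ass1. The amino acid enzymes lie left of 0, the chaperones lie near or right of 0, and the interval crosses 0 in most genes.

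Of the 13 ER chaperones and folding enzymes none passed limma's test, with adjusted p from 0.237 to 0.987. At an unadjusted p under 0.05, 2 were higher and 0 lower, where all genes gave 9.75% and 8.11%. Of the 13, 11 had a positive difference, where 48.5% of all genes were positive, and in 7 both GIC arrays lay above both non-GIC arrays, against 25.5% of all genes. GIC replicate 1 was the highest array in 10 of the 13. The differences were small, and the median size was 0.19.

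Hspa5 (BiP), the main Hsp70 chaperone of the ER and a standard readout of the unfolded protein response, had 13.99 and 13.79 in GIC and 13.77 and 13.80 in non-GIC. Its groups overlapped, and the 95% interval of the difference was -0.21 to 0.42. Hsp90b1 (Grp94), the ER member of the Hsp90 family, had 13.72 and 13.64 in GIC and 13.43 and 13.56 in non-GIC (difference 0.19, 95% interval -0.12 to 0.49). Hyou1, an exchange factor of Hspa5, had 10.85 and 10.85 in GIC and 10.70 and 10.65 in non-GIC (difference 0.18). Each of these intervals leaves out a change of 1 on the log2 scale, which is a doubling or more, in either direction.

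The lectin chaperones Calr and Canx hold newly made glycoproteins, and both overlapped between the sublines. Calr had 14.25 and 13.86 in GIC and 13.76 and 13.89 in non-GIC, and Canx had 13.13 and 13.14 in GIC and 13.23 and 13.14 in non-GIC. Among the protein disulfide isomerases, Pdia3 had 13.81 and 13.56 in GIC and 13.33 and 13.53 in non-GIC (difference 0.25, limma adjusted p = 0.455). Pdia4 had 9.90 and 9.51 in GIC and 9.67 and 9.99 in non-GIC (difference -0.12). Pdia6 had 12.85 and 12.65 in GIC and 12.81 and 12.68 in non-GIC (difference 0.01), and both overlapped between the sublines.

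The largest positive values among the folding genes belonged to cochaperones. Dnajb9 (ERdj4), a target of spliced Xbp1 that assists Hspa5, had 10.89 and 10.51 in GIC and 9.50 and 10.20 in non-GIC. The groups did not overlap, and the difference was 0.85 (SE 0.30, 95% interval 0.06 to 1.64, limma adjusted p = 0.256). Leaving out non-GIC replicate 1 gave 0.50, and leaving out non-GIC replicate 2 gave 1.20. Sdf2l1, a partner of ER Hsp40 proteins, had 9.17 and 9.10 in GIC and 8.75 and 8.39 in non-GIC (difference 0.57, SE 0.19, limma adjusted p = 0.237). Dnajc3 (p58IPK), an inhibitor of eIF2alpha kinases, had 10.70 and 10.60 in GIC and 10.14 and 10.44 in non-GIC. All 5 Dnajc3 probe sets had a positive difference, from 0.15 to 0.36. The secreted factor Manf had 12.82 and 12.78 in GIC and 12.56 and 12.48 in non-GIC (difference 0.28, limma adjusted p = 0.348). Creld2, which is released on ER stress, had 10.81 and 10.70 in GIC and 10.81 and 10.60 in non-GIC.

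The 3 genes of ER-associated degradation did not share a sign and none passed limma's test. At an unadjusted p under 0.05, 1 was lower in GIC, where all genes gave 8.11%. Edem1, which hands misfolded glycoproteins to degradation, had 9.80 and 9.81 in GIC and 10.37 and 10.44 in non-GIC. The arrays of each subline lay close together, and the difference was -0.60 (SE 0.16, 95% interval -1.01 to -0.19, limma adjusted p = 0.16), with -0.81 for its other probe set. Herpud1, an adaptor of the ubiquitin ligase complex of the ER, had 10.57 and 10.45 in GIC and 10.80 and 11.46 in non-GIC. Its non-GIC gap of 0.66 was larger than the difference of -0.62 (limma adjusted p = 0.324), which was -0.29 without non-GIC replicate 2. Sel1l, the scaffold of that complex, had 10.09 and 9.86 in GIC and 9.63 and 10.03 in non-GIC, with overlap.

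The 39 genes had 95 probe sets, of which 87 passed the filter. Tested over all probe sets, 1 of the 87 was called, the Ass1 probe set, lower in GIC, where 1.58% of all probe sets were called and 0.613% were lower. Of 25 genes with more than 1 probe set past the filter, 18 had all of them on the same side of 0. The enzymes Asns, Phgdh, Psat1, Shmt2, Mthfd2 and Aldh18a1 were among these 18. Probe sets of a gene share the RNA sample, so they do not check the culture. Every probe set of Phgdh and Psat1, and most of Shmt2 and Aldh18a1, can bind several transcripts. Those transcripts may belong to the same gene or to other genes, and these cases were not told apart here. For these genes a shared sign may therefore be a weak check of the probe. No Mthfd2 probe set was marked as binding several transcripts, and Asns had a probe set of each kind. Leaving such probe sets out left 30 of the 38 genes. The genes lost were Phgdh, Psat1, Slc3a2, Atf5, Trib3, Hspa5, Hsp90b1 and Calr.

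**Figure D4:**
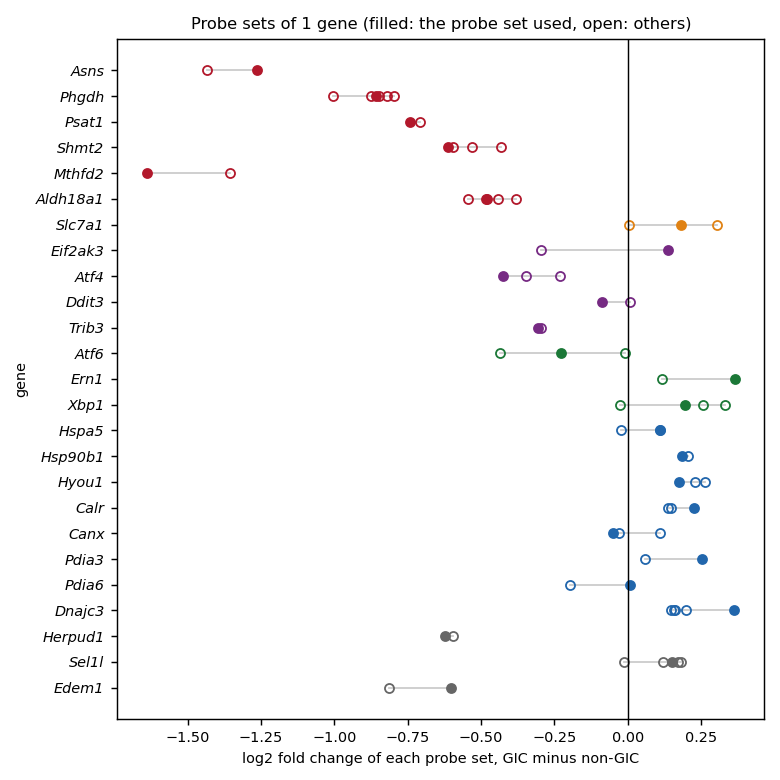
Log2 fold change, GIC minus non-GIC, of every probe set past the filter for the 25 genes with more than 1; the filled point is the probe set used for the gene. Probe sets of Asns, Phgdh and Mthfd2 lie together left of 0, and those of Hspa5, Xbp1 and Eif2ak3 lie on either side of 0.

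Of 113 other genes of these pathways, 106 were tested and none passed limma's test, with 6 higher and 17 lower in GIC at an unadjusted p under 0.05, where all genes gave 9.75% and 8.11%. The median was -0.06. Among 13 tRNA charging genes, the aminoacyl-tRNA synthetases and the tRNA exporter Xpot, all 13 differences were negative, with a median of -0.50. In 9 of them both GIC arrays lay below both non-GIC arrays. Over all genes, 51.5% of differences were negative and both GIC arrays lay below in 24.9%. The glycyl-tRNA synthetase Gars had 11.07 and 11.28 in GIC and 12.16 and 12.05 in non-GIC (difference -0.93, limma adjusted p = 0.0786). The asparaginyl-tRNA synthetase Nars had 11.86 and 11.93 in GIC and 12.70 and 12.64 in non-GIC (difference -0.77, limma adjusted p = 0.0786). The synthetases resembled the amino acid enzymes in sign, and GIC replicate 1 again had the lower mean deviation, -0.42, beside -0.07 on GIC replicate 2.

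Among 25 further Atf4 targets, 18 differences were negative, where 51.5% of all genes were, and the median was -0.41. The stress protein Nupr1 had 10.06 and 9.74 in GIC and 11.10 and 11.27 in non-GIC (difference -1.28, limma adjusted p = 0.0609). The mitochondrial folate enzyme Aldh1l2 had 8.05 and 8.10 in GIC and 9.72 and 10.80 in non-GIC (difference -2.19, limma adjusted p = 0.0812). These were the smallest p of that list. Of the eIF2 kinases and translation control genes, 14 were tested. There 9 differences were positive and 5 negative, where 48.5% of all genes were positive, and the median was 0.13. At an unadjusted p under 0.05, 3 were higher and 1 lower in GIC, where all genes gave 9.75% and 8.11%. The smallest p belonged to Eif2ak2, the kinase PKR, and Eif2ak1, with differences of 0.69 and 0.57 (limma adjusted p = 0.149 and 0.188). Of 9 further regulators of the unfolded protein response, 4 differences were positive and 5 negative, where 51.5% of all genes were negative. Their median was -0.03. The smallest p belonged to Creb3l1 (-0.78) and the apoptosis gene Bak1 (-0.75), with limma adjusted p = 0.188 and 0.253.

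The further ER lists lay near or above 0. The median was 0.19 over 13 degradation genes, 0.01 over 16 folding enzymes and 0.22 over 16 translocation and export genes. The smallest p belonged to Edem2 (0.98, limma adjusted p = 0.158) and Edem3 (0.48, 0.336), to Dnajb11 (0.30, 0.389) and Selenok (0.42, 0.394), and to Sec61b (0.43, 0.275) and Spcs3 (0.50, 0.375). Edem1 and its relatives Edem2 and Edem3 thus had differences of opposite sign, and that contrast was not tested.

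**Figure D5:**
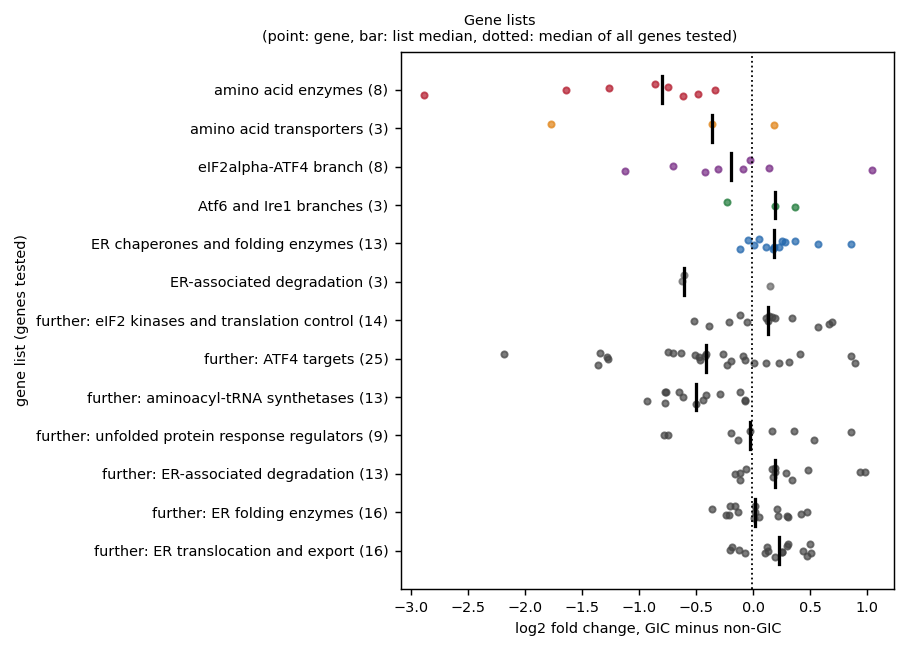
Log2 fold change, GIC minus non-GIC, of the genes in each list (points), with the list median as a bar and the median of all tested genes as a dotted line; numbers in brackets are genes tested. The amino acid enzymes, the tRNA charging genes and the further Atf4 targets have medians of -0.80, -0.50 and -0.41, and the ER lists lie between -0.60 and 0.22.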

How the data were processed

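Gene expression in 2 GIC and 2 non-GIC samples was measured on Affymetrix arrays, after biotin labelling by in vitro transcription, per the labels' protocols. The deposited table holds a log2 signal for each of 45101 probe sets; the log2 scale was read from the values and the near-equal array quantiles, and how the authors corrected, summarised and normalized the arrays is not stated in those sources. No pair of arrays held identical values (0 pairs).

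Probe sets were named through the platform annotation, with symbols updated through the gene identifier (34945 with 1 symbol, 932 with several, 9160 unnamed, 64 controls). A gene was represented by its probe set with the highest mean; probe sets with several symbols were used only for the 40 genes. Genes with at least 2 arrays above the 40th percentile (5.97) were tested (limma 3.58.1, R 4.3.3, eBayes with trend, group only, two-sided, Benjamini-Hochberg over 13367 genes, threshold 0.05), with 2 residual and 2.72 prior degrees of freedom. The procedure was also run on simulated data, whose results are not reported here. With 2 arrays a group an exact permutation test cannot go below p = 0.333, and the number of arrays limits precision. Figures used matplotlib 3.10.9 in Python 3.11.15.

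The 40 genes and the lists were chosen with earlier results of these data known. All 40 could be named; from other pathway lists, genes that passed and the 2 with the smallest p.

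The labels do not say whether the replicate numbers pair the arrays. The replicate gaps of the sublines correlated at -0.32 over genes, so arrays with the same number did not shift together. This correlation cannot decide whether arrays were paired, under the same or crossed numbers. Alternatives were the replicate block, quantile normalization, median centring, other filters, probe set choices, eBayes options and leaving out each array.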

Additional observations from a re-analysis of the deposited data

How the results depend on the processing

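The median log2 fold change of the 40 genes lay between -0.10 and -0.03 in every alternative. The count of genes called among them was 1 under 8 alternatives that kept all arrays. With the replicate number as a block it was 0 of 38, and 0 of 87 probe sets, with 29 of all genes called (258 without it); 1-symbol probe sets only gave 0 and 0, because Ass1 then had no probe set past the filter. Blocks with crossed numbers, added after seeing the data, called 687 genes, 5 of the 40, 6 of their probe sets and 6 other pathway genes. Leaving out 1 array gave 12 to 192 genes (83 and 192 when GIC replicate 1 or 2 was dropped, 12 and 56 when non-GIC replicate 1 or 2 was), 0 to 2 of the 40 and 0 to 4 probe sets; the lone array left in a group takes its spread from the other subline. None of the other pathway genes was called under the remaining alternatives. Signs turned in small differences: Pdia6 to -0.00925 with quantile normalization, -0.0248 with median centring and -0.0946 with the mean of probe sets; with that mean Eif2ak3 to -0.0719, Canx to 0.0107 and Pdia4 to 0.0446; and Xbp1 to -0.0275 when probe sets able to bind several transcripts were left out. Over the arrays left out, differences ranged from -0.68 to 0.012 for Psph, -0.087 to 0.45 for Slc7a1, -0.15 to 0.42 for Eif2ak3, -0.39 to 0.22 for Ddit3, -0.95 to 0.34 for Trib3, -0.00273 to 0.39 for Xbp1, -0.31 to 0.0751 for Pdia4, -0.10 to 0.11 for Pdia6, -0.0508 to 0.15 for Creld2 and -0.0495 to 0.35 for Sel1l. The mean of probe sets and the omission of those able to bind several transcripts were not planned for the probe set test. Over the arrays left out, the medians by role, added after seeing the data, ranged from -1.20 to -0.49 for the enzymes, -0.56 to -0.17 for the transporters, -0.40 to 0.09 for the eIF2alpha-Atf4 branch, -0.00273 to 0.39 for the Atf6 and Ire1 genes, 0.13 to 0.24 for the chaperones and -0.64 to -0.29 for degradation. With 2 arrays a group, the intervals are wide.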
